A study of Caenorhabditis elegans with 18 samples.

Results

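The transcripts of *Caenorhabditis elegans* exposed to LK34 were compared with those of worms given the solvent alone, dimethyl sulfoxide (DMSO). LK34 is a small molecule that was taken forward, with others of the LK series, from a screen for compounds that protect worms from *Pseudomonas aeruginosa*, and the arrays ask which transcripts it changes when no pathogen is present. Of the 18 Affymetrix arrays of the study, the 3 LK34 arrays and the 3 DMSO arrays carry the comparison, and they were chosen by their treatment label. All 6 hold RNA from whole young adults of the wild-type strain N2, grown for 56 h at 22°C and kept for 8 h in S Basal, a salt buffer, with *Escherichia coli* OP50 as food, at about 6000 worms per well. The LK34 wells held 100 µM of the compound and the control wells held DMSO. The LK35, LK38 and LK32 arrays, 3 for each compound, are set against LK34 at the end, and they come from worms of the same strain, stage, dose and time. No gene was mutated or tagged in any of the groups, and the label of the whole organism means that each value mixes all tissues. The arrays of each group carry the letters A, B and C, and no source says more of their preparation than that they are triplicates, so the p values measure only the spread between these samples.

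Worms meet foreign small molecules with enzymes that oxidize them, join them to glutathione or sugars and export them, many of which are switched on by the transcription factor SKN-1, the worm counterpart of mammalian Nrf2. Separate programs answer low oxygen and hydrogen sulfide (HIF-1), metals, unfolded proteins in the cytosol, the endoplasmic reticulum or the mitochondria, and infection, the last in part through the p38 kinase PMK-1. Much of this takes place in the intestine, which also stores fat and makes yolk, and in the epidermis, which secretes the cuticle and antimicrobial peptides. The results below follow these roles, first for transcripts that rose with LK34 and then for those that fell.

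Each value is an intensity on a linear scale, as summarized by GCRMA, and 1 array gives 1 value for each probe set. Of 22548 probe sets tested, 9729 lay at the lowest intensity of the table, 4.61, on all 6 arrays. A fold against a group that lies wholly at this floor is a lower bound, written as at least that fold. By floor share and correlation the arrays were alike, with 47.16% to 49.03% of the values of each of the 6 at the floor. Their mean correlation with the other arrays of their own group was 0.9753 to 0.9860. LK32 C, LK35 A and LK38 C had the lowest such correlations of the study, 0.954 to 0.958. Estimated array weights, which are lower for arrays that stray more from their group, were uneven. Among the 6 they ran from 0.49 for DMSO B and 0.50 for LK34 A to 4.74 for LK34 B. Changes are given as log2 differences of LK34 minus DMSO with the standard error (SE) of limma, which was fitted to all 18 arrays with 1 mean for each of the 6 groups. Calls asked for a p below 0.05 after Benjamini-Hochberg adjustment over all probe sets and for no less than a 2-fold change. In a gene list each gene is taken by its brightest probe set, and a probe set shared by several genes counts as a member of its own. Unlike the calls, members of a list are counted as having risen or fallen at the adjusted p alone. At that threshold 2.25% of all probe sets passed upward and 1.39% downward, and every list count is to be read beside these shares. Both shares include the probe sets at the floor, which could not pass. The lists were chosen with earlier results of these data known, so their counts are not an independent test. With 3 arrays against 3, an exact permutation test of a single gene cannot give a two-sided p below 0.10, so the calls rest on the spread that limma takes from all groups.

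LK34 raised 336 probe sets (1.49% of those tested) and lowered 183 (0.812%). They stand for 285 and 137 distinct genes, counting probe sets that match 1 gene. Of these genes, 97 had at least 1 other probe set. Every probe set was called the same way in 31 of the 97, and in 0 were they called in opposite directions. For the rest of the 97, a change of the gene rests on part of its probe sets. The rises reached further than the falls, with 64 probe sets at least 8-fold higher and 18 at least 8-fold lower. Of the 336, 103 had a mean DMSO intensity under 32, close to background, and for 10 of them every DMSO array was at the floor. In all 336 the LK34 arrays lay above all DMSO arrays, and in 182 of the 183 they lay below them. Among all probe sets tested, 10.2% had every LK34 array above every DMSO array and 6.39% had every one below. The median of the raised probe sets stood 1.87, 1.90 and 1.73 above the DMSO mean on LK34 A, B and C (log2). That of the lowered ones fell by 1.63, 1.76 and 1.97. These probe sets were called on the same arrays, so the medians do not test whether the arrays agree. The median over all probe sets was 0.0. Of the probe sets called, 168 of the 336 and 112 of the 183 can bind transcripts of several related genes, as their names ending in _s_at or _x_at show.

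**Figure D1:**
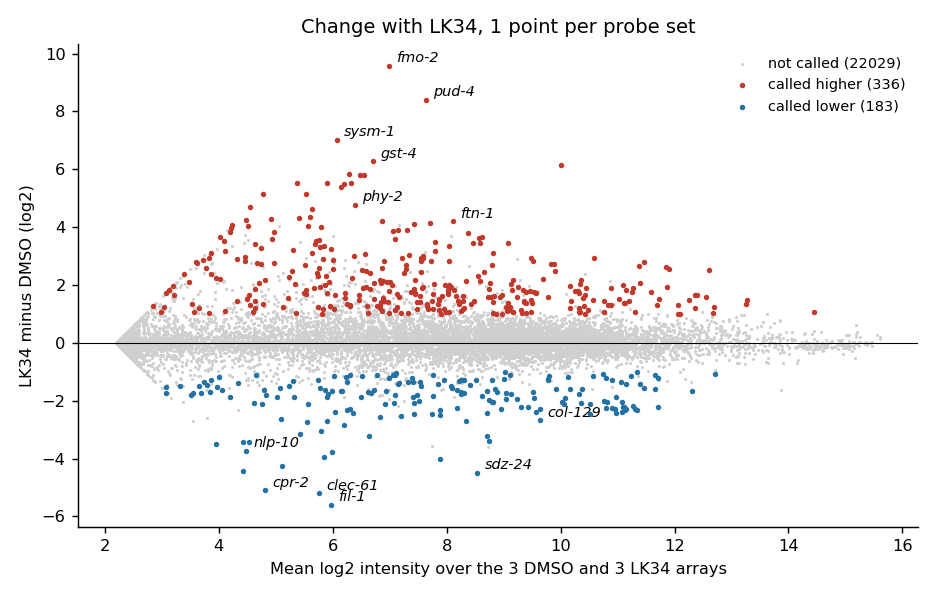
Log2 difference of LK34 minus DMSO against the mean log2 intensity over the 6 arrays, 1 point for each of 22548 probe sets, with those called higher in red (336) and those called lower in blue (183). The points spread further upward, to 9.57 for *fmo-2*, than downward, to -5.60 for *fil-1*.

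The largest rise with LK34 was that of a detoxification gene, and in most detoxification families few members moved. *fmo-2* (191759_at), the gene of a flavin-containing monooxygenase, gave no DMSO value above the floor and had intensities of 4356, 4433 and 2233 on the LK34 arrays A, B and C, at least 761-fold higher (adjusted p = 1.7e-08). The other 4 *fmo* genes on the array were not called, and their log2 values ran from -0.74 for *fmo-1* to 0.82 for *fmo-4*. *gst-4* (192407_at), a glutathione S-transferase that is the usual reporter of SKN-1, was 15.97, 6.56 and 16.12 with DMSO and 942, 869.8 and 971 with LK34. The groups lay far apart (log2 6.28, SE 0.43, adjusted p = 4.7e-06), and the 3 LK34 arrays differed little from each other. *gst-10* (187084_at), whose enzyme acts on the products of lipid peroxidation, was 14.1, 7.41 and 15.4 with DMSO and 537, 532 and 569 with LK34 (log2 5.54, SE 0.43, adjusted p = 1.1e-05). *nit-1* (188607_at), which encodes a nitrilase homolog, was 9.71, 13.9 and 9.71 with DMSO and 571, 555 and 387 with LK34 (log2 5.50, SE 0.42, adjusted p = 1.1e-05). For each of these 4 genes the lowest LK34 array was far above the highest DMSO array. Lack of overlap was itself a condition for the 15 largest rises, which include all 4.

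Of 12 genes known as SKN-1 targets of phase II detoxification, 7 passed an adjusted p of 0.05 upward and none downward, with a list median of 1.46 on the log2 scale, whereas 2.25% of all probe sets passed upward and 1.39% downward. Over all probe sets these were 507 and 313, and leaving out 1 array gave 297 to 389 upward and 190 to 233 downward, with the upward count 297 without LK34 B and 321 without DMSO B, and the downward count 190 without LK34 C and 201 without LK34 B. The shares over all probe sets include 9729 at the floor on all 6 arrays, against 1 of the 12 list genes. Like the other lists, this one was chosen with earlier results of these data known. Besides *gst-4*, *gst-10* and *nit-1*, the list genes that rose were *gst-5* (log2 3.79, adjusted p = 4.3e-05), *gst-12* (2.77, adjusted p = 0.0027), *gst-30* (at least 1.83, adjusted p = 0.028) and *gst-7* (0.92, adjusted p = 0.0031). The *gst-30* call ended without DMSO A (1.83), DMSO B (1.83), DMSO C (1.83), LK34 B (1.37) or LK34 C (1.91). *gcs-1*, which encodes the first enzyme of glutathione synthesis and is also a SKN-1 target, had a log2 value of 0.28 (95% interval -0.17 to 0.72, adjusted p = 0.81) and was not called. Over the whole family of 45 glutathione S-transferases, 11 rose and 1, *gstk-2*, fell (log2 -1.15, adjusted p = 0.0047), and 15 lay at the floor on all 6 arrays. *gst-19* (190962_s_at) went from the floor on each DMSO array to 170.1, 157 and 166, a narrow range at least 35.6-fold higher. Its SE of 0.03 rests largely on groups at the floor, which have no spread. *gst-24* (190975_at) rose from 17.4, 13.1 and 16.04 to 103.9, 348 and 154, with LK34 B more than 2-fold above the other arrays of its group (log2 3.52, SE 0.32, adjusted p = 4.3e-05). *gst-6* (log2 2.83), *gst-39* (1.87) and *gstk-1* (0.68, which missed the adjusted p without DMSO B (0.68), DMSO C (0.62), LK34 A (0.67) or LK34 B (0.61)) make up the 11.

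The other detoxification families moved little as families, and their counts stand beside 2.25% upward and 1.39% downward over all probe sets. Of 75 cytochrome P450 genes, which oxidize foreign compounds, 3 rose, namely *cyp-43A1* (log2 1.65, adjusted p = 0.0074), *cyp-33B1* (1.46, adjusted p = 0.0052) and *cyp-37A1* (1.13, adjusted p = 0.016), and none fell. The *cyp-37A1* call ended without DMSO B (0.95), DMSO C (1.14), LK34 A (1.12), LK34 B (1.14) or LK34 C (1.15). Of 64 UDP-glucuronosyltransferases, which attach sugars, *ugt-39*, *ugt-22*, *ugt-6*, *ugt-17* and *ugt-41* rose, by 3.41, 3.11, 2.32, 1.88 and 1.35 on the log2 scale, from DMSO values under 32 in all but *ugt-17*. The *ugt-17* call ended without any 1 of the 6 arrays (1.604 to 2.10) and that of *ugt-41* without DMSO C (1.24) or LK34 B (1.11). For 43 ABC transporters, which export conjugates, limma passed 0 members, and an unadjusted p under 0.05 was met by 4 upward and 1 downward. Of 7 superoxide dismutase and catalase genes limma passed 0, with 1 downward at the unadjusted level, and the log2 values of *sod-1* and *sod-2* were 0.13 (95% interval -0.01 to 0.28) and 0.01 (-0.35 to 0.36). Of 27 genes of the glutathione and thioredoxin systems, 2 rose, the peroxiredoxin gene *prdx-2* (log2 0.26, adjusted p = 0.018) and the glutathione peroxidase gene *gpx-5* (1.81, adjusted p = 0.019). The *gpx-5* call ended without DMSO B (1.501), LK34 A (1.77) or LK34 B (1.72), and *prdx-2* missed the adjusted p without DMSO B (0.20), LK34 A (0.25), LK34 B (0.27) or LK34 C (0.25).

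**Figure D2:**
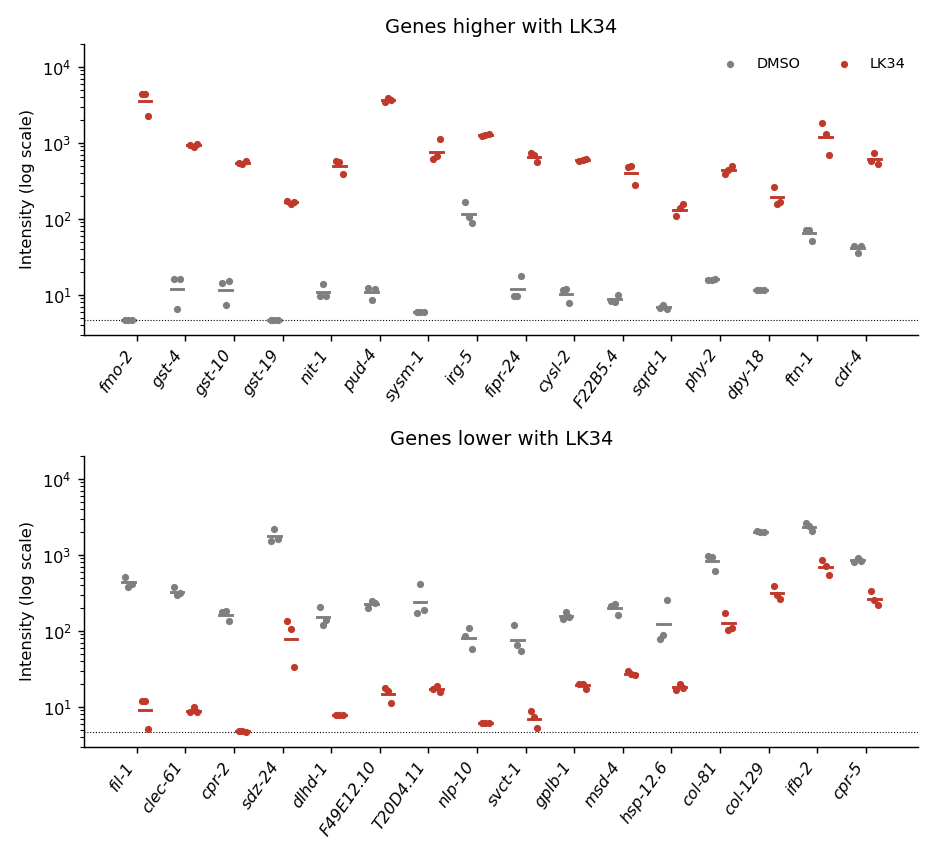
Intensity on a log scale of 16 genes that rose (top) and 16 that fell (bottom), with 1 point for each DMSO array (gray) and LK34 array (red), a bar at the geometric mean of each group and a dotted line at the floor of 4.61. In each gene shown every LK34 array lies on 1 side of all DMSO arrays, from *fmo-2*, at the floor with DMSO, to *cpr-2*, near the floor with LK34. The same held for all 336 raised probe sets and for 182 of the 183 lowered ones. Among all probe sets tested, every LK34 array lay above every DMSO array in 10.2% and below in 6.39%.

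Genes of hydrogen sulfide handling and other HIF-1 targets formed a second group of large and even rises. *cysl-2* (188978_s_at), a cysteine synthase homolog that is a HIF-1 target, was 11.6, 12.05 and 7.78 with DMSO and 570.3, 587 and 610.5 with LK34 (log2 5.84, SE 0.47, adjusted p = 1.4e-05). *F22B5.4* (177532_at), a HIF-1 target without a known function, was 8.30, 8.09 and 9.92 and 482, 497 and 281 (log2 5.54, SE 0.68, adjusted p = 0.00047). *sqrd-1* (178043_at), which encodes the sulfide:quinone oxidoreductase that begins sulfide oxidation in mitochondria, was 6.72, 7.38 and 6.45 and 108, 137 and 155 (log2 4.27, SE 0.35, adjusted p = 1.7e-05). The next enzyme of that route, the persulfide dioxygenase encoded by *ethe-1*, rose from 92.2, 27.1 and 93.7 to 390.4, 399 and 406 (log2 2.69, adjusted p = 0.0025). Its DMSO B value was the lowest, and without that array the log2 value was 2.10. *cysl-3*, another cysteine synthase homolog, rose by 1.70. In the first 4 of these genes no LK34 array was near a DMSO array. In all, 5 of 14 genes on this list rose and none fell, with a median of 0.78. The regulators themselves were not called. The log2 values were 1.02 for *hif-1* (adjusted p = 0.14), 0.04 for *egl-9*, the oxygen sensor that marks HIF-1 for removal, -0.08 for *vhl-1* and 0.03 for *rhy-1*. Among genes outside the lists, *mpst-3*, which encodes a mercaptopyruvate sulfurtransferase, an enzyme that also yields sulfide, rose from 399, 451 and 293 to 1388, 1388 and 1175 (log2 1.81, adjusted p = 8.7e-06). *semo-1*, which encodes a methanethiol oxidase, rose by 1.73 (adjusted p = 0.0084). Both were named after their values were seen.

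The 2 catalytic subunits of collagen prolyl 4-hydroxylase, the oxygen-dependent enzyme that modifies collagen before it is secreted, rose together. *phy-2* (193464_s_at) was 15.9, 15.9 and 15.995 with DMSO and 390.1, 438 and 489 with LK34 (log2 4.78, SE 0.22, adjusted p = 7.1e-08). *dpy-18* (175803_at) was 11.7, 11.7 and 11.7 and 266, 156 and 168 (log2 4.03, SE 0.80, adjusted p = 0.013). Neither gene had a DMSO array near an LK34 array, though the *dpy-18* call at this probe set ended without LK34 A (3.79). Of 14 genes of collagen hydroxylation and processing, *pdi-1*, which encodes a disulfide isomerase, was the other one that rose, by 0.53 (adjusted p = 0.0055).

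Metal and iron genes rose singly. *cdr-4* (191871_s_at), a cadmium-responsive gene, was 43.7, 35.5 and 43.7 with DMSO and 577, 734 and 534 with LK34 (log2 3.90, SE 0.47, adjusted p = 0.00042). A probe set shared by *numr-1* and *numr-2*, metal-responsive genes of the nucleus, rose by 3.28 (adjusted p = 0.0014), and the metallothionein gene *mtl-2* by 1.23 (adjusted p = 0.0002). The other metallothionein gene, *mtl-1*, had a log2 value of -0.16 (95% interval -0.45 to 0.12), so that 3 probe sets rose among the 27 members of the metal list. *ftn-1* (190427_s_at), which encodes the intestinal ferritin that stores iron, rose from 72.3, 72.3 and 51.1 to 1845, 1294 and 690.4, with LK34 C the lowest of its group and still far above DMSO (log2 4.197, SE 0.64, adjusted p = 0.0022). *ftn-2*, the other ferritin gene, had a log2 value of 0.64 (adjusted p = 0.39). Outside the lists, *fpn-1.1*, a ferroportin homolog of iron export, rose by 1.74 (adjusted p = 0.006) and the heme-responsive gene *hrg-7* by 3.07 (adjusted p = 0.0012, and 2.42 without DMSO B), both named after their values were seen.

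Genes known from infection rose without a pathogen. *sysm-1* (178297_at), which encodes a small secreted peptide and serves as a reporter of the PMK-1 pathway, was 5.99, 5.88 and 5.88 with DMSO and 607, 662 and 1120 with LK34. Its DMSO values lay near the floor (log2 7.02, SE 0.31, adjusted p = 6.6e-08). *irg-5* (179695_at), another gene induced by *P. aeruginosa*, was 168, 105 and 87.8 and 1248, 1262 and 1294, with the 3 LK34 arrays within a narrow range (log2 3.45, SE 0.24, adjusted p = 4.4e-06). Of 27 infection-response genes, 9 rose and none fell, with a median of 0.71. The others were *C32H11.4* (5.79), *F55G11.8* (2.89, and 3.48 without LK34 C), *F01D5.1* (2.40), *irg-4* (2.30), *dod-23* (1.76), *K08D8.5* (1.601) and *dod-3* (0.96). The *F01D5.1* call ended without DMSO A (2.51), DMSO B (2.37), DMSO C (2.32), LK34 A (2.05) or LK34 B (2.37). Others induced by infection were not called, among them *irg-1* (log2 -0.62, 95% interval -1.58 to 0.35), which depends on the factor ZIP-2 rather than on PMK-1, and *dod-22* (-0.17, -1.33 to 0.99).

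Among 33 antimicrobial peptides, most of them products of the epidermis, 4 rose and none fell. *fipr-24* (172241_x_at), of the fungus-induced peptide family, was 9.78, 9.78 and 17.8 with DMSO and 743, 688 and 562 with LK34 (log2 5.79, SE 0.44, adjusted p = 1.1e-05). *cnc-3*, of the caenacin family, rose from 4.97, 4.97 and 4.61 to 118, 65.2 and 43.6 (log2 3.84, SE 0.68, adjusted p = 0.006), next to its genomic neighbor *cnc-4* (4.15), and the probe set of *fipr-22* and *fipr-23* by 1.21. *nlp-29*, the peptide gene usually read as a sign of epidermal infection or wounding, had a log2 value of 0.01 (95% interval -1.15 to 1.17). These genes belong to families of near-identical copies, so their probe sets may bind more than 1 transcript. Of 42 lysozyme and saposin-like genes, *lys-2*, *lys-7*, *lys-1* and *lys-8* rose (log2 2.81, 2.07 and 1.32 for the first 3, and 2.01-fold for *lys-8*) and *spp-18*, *ilys-5* and *spp-1* fell (-1.61, -1.22 and -1.06). *lys-1* and *lys-2* are neighbors in the genome. The *lys-8* call ended without DMSO A (1.02), DMSO B (0.98), DMSO C (1.01), LK34 A (0.84) or LK34 B (0.9998) and that of *spp-1* without LK34 C (-0.88). Of 232 C-type lectin genes, 7 rose and 3 fell, against 155 at the floor on all 6 arrays, and the count that rose was 2 without DMSO B, LK34 A or LK34 B and 4 without DMSO C or LK34 C. Both shares are close to those over all probe sets, 2.25% upward and 1.39% downward.

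Chaperones were examined by compartment. In the cytosol, the constitutive Hsp70 gene *hsp-1* rose from 4241, 4813 and 5260 to 9043, 8057 and 9128 (log2 0.88, SE 0.10, adjusted p = 0.00024). The probe set of the inducible Hsp70 genes *F44E5.4* and *F44E5.5* (190958_s_at) was 5.83, 8.40 and 24.5 and 120.5, 235 and 370.1 (log2 4.36, SE 0.80, adjusted p = 0.008), and another probe set of the same pair was 4.61, 27.3 and 45.2 and 76.0, 271 and 604 and was not called (log2 3.70, adjusted p = 0.11). Without DMSO C the value at the former was 4.97. Of the small heat shock genes, the probe set of *hsp-16.1* and *hsp-16.11* was 4.75, 5.42 and 4.75 with DMSO and 14.5, 36.5 and 125 with LK34 (log2 3.03, SE 0.91, adjusted p = 0.11). That of *hsp-16.48* and *hsp-16.49* was 4.61, 5.38 and 22.8 and 51.8, 145 and 328 (log2 4.03, SE 1.04, adjusted p = 0.055), and neither was called. In each of these probe sets LK34 C was the highest array and LK34 A the lowest of its group. *hsp-70* was at the floor on all 6 arrays. *hsp-12.3* rose (log2 1.84, adjusted p = 0.013), a call that ended without LK34 B (1.72). *hsp-12.6*, a small heat shock gene of long-lived worms, fell from 78.3, 88.5 and 259 to 16.7, 20.1 and 17.96 (log2 -2.74, SE 0.52, adjusted p = 0.01), and DMSO C was the highest array by far.

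In the endoplasmic reticulum the changes were small. *hsp-4*, the worm BiP and the usual reporter of reticulum stress, was 791, 791 and 989 with DMSO and 1301, 1405 and 1457 with LK34, without overlap (log2 0.70, SE 0.16, adjusted p = 0.028). *xbp-1*, the transcription factor of that response, rose by 0.86 (adjusted p = 0.0047), and *pdi-3* by 0.55. With *pdi-1* these were 4 of 34, none of them 2-fold, and without any 1 of the LK34 arrays 2 passed. *hsp-4* missed the adjusted p without DMSO A (0.65), DMSO B (0.65), LK34 A (0.75), LK34 B (0.69) or LK34 C (0.67), and *pdi-3* without DMSO B (0.42), DMSO C (0.60), LK34 A (0.47), LK34 B (0.56) or LK34 C (0.62). On the mitochondrial list limma passed 0 of 16, and an unadjusted p under 0.05 was met by 2 upward and 3 downward. *hsp-6*, the mitochondrial Hsp70 that reports mitochondrial stress, was 2094, 1944 and 2221 and 1900, 2052 and 2244, which overlap (log2 -0.02, 95% interval -0.37 to 0.34). *hsp-60* had a log2 value of 0.50 (95% interval 0.15 to 0.85, adjusted p = 0.14). Of 33 proteasome subunits, *rpn-2* rose and *pas-7* fell (log2 0.43 and -0.84), the former missing the adjusted p without any 1 of the 6 arrays (0.38 to 0.49). Among genes of Skp1-related ubiquitin ligase adaptors and cullins, 6 of 27 rose and none fell. *skr-15* (log2 2.68), *skr-9* (2.27), *skr-13* (2.07), *skr-21* (2.02), *skr-8* (1.42) and *skr-7* (1.03) were the members, and *skr-13*, *skr-9* and *skr-8* lie next to each other on chromosome IV. The probe sets of these neighbors have names ending in _x_at, so they may bind transcripts of related genes. Of the 6 members that rose, only 3 passed without DMSO A or DMSO C and 2 without LK34 B. The calls ended for *skr-15* without DMSO A (2.63), DMSO C (2.66), LK34 B (2.56) or LK34 C (2.40), for *skr-13* without LK34 B (1.95), for *skr-21* without DMSO A (1.95), DMSO B (1.93), DMSO C (2.17), LK34 A (1.65) or LK34 B (2.03) and for *skr-7* without DMSO A (0.98), DMSO B (1.06), DMSO C (1.04), LK34 B (0.91) or LK34 C (0.87).

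**Figure D3:**
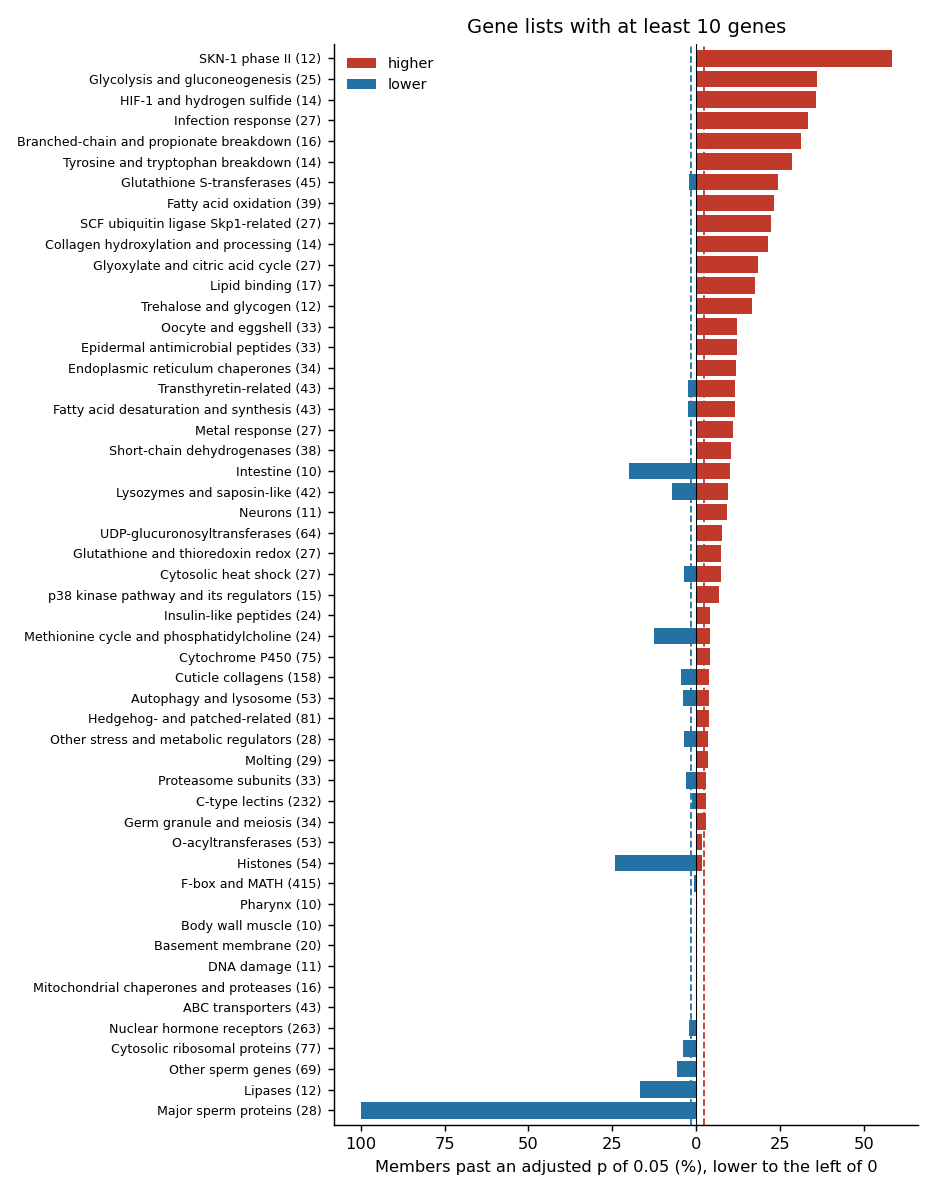
Share of the genes in each list that passed an adjusted p of 0.05 upward (red, to the right) or downward (blue, to the left), for lists of at least 10 genes, with the number of genes in brackets and dashed lines at the shares over all probe sets, 2.25% upward and 1.39% downward. SKN-1 targets lead upward with 7 of 12, and the major sperm proteins lead downward with 28 of 28. The lists were chosen with earlier results of these data known.

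Some genes of central carbon metabolism rose with LK34, a few strongly and others slightly. *ldh-1* (192972_at), which encodes lactate dehydrogenase, was 203, 145 and 177 with DMSO and 1397, 1062 and 977 with LK34 (log2 2.71, SE 0.24, adjusted p = 3.4e-05). *adh-1* (190978_at), an alcohol dehydrogenase gene, was 1723, 3486 and 2908 and 18231, 16055 and 11466 (log2 2.53, SE 0.35, adjusted p = 0.0012). *pck-1* (192581_s_at), which encodes the phosphoenolpyruvate carboxykinase of gluconeogenesis, was 296, 498 and 392.5 and 2028, 1816 and 1518 (log2 2.20, SE 0.29, adjusted p = 0.00068). Every LK34 array stood above every DMSO array in these 3 genes. Of 25 genes of glycolysis and gluconeogenesis, 9 rose and none fell, with a median of 0.56, and 5 passed without LK34 B. The other 6 stayed under 2-fold: *fbp-1* (log2 0.85), *pfk-1.1* (0.85), *pgk-1* (0.82), *pyk-1* (0.62), *gpi-1* (0.54) and *ipgm-1* (0.49). Of these, *fbp-1* missed the adjusted p without DMSO B (0.74), DMSO C (0.88), LK34 B (0.77) or LK34 C (0.78), *pfk-1.1* without any 1 of the 6 arrays (0.72 to 0.95), *pyk-1* without DMSO A (0.59), DMSO B (0.56), LK34 A (0.67), LK34 B (0.65) or LK34 C (0.54) and *ipgm-1* without DMSO A (0.46), DMSO C (0.45), LK34 A (0.46) or LK34 B (0.47). Of 27 genes of the citric acid and glyoxylate cycles, *cts-1*, *suca-1*, *mdh-1*, *fum-1* and *mdh-2* rose, by 0.79, 0.79, 0.77, 0.66 and 0.59 on the log2 scale, and none fell. *fum-1* missed the adjusted p without DMSO A (0.61), DMSO C (0.61), LK34 A (0.60) or LK34 B (0.66). *mdh-1*, a malate dehydrogenase gene, shows how even these small changes were, with 4501, 5535 and 4777 on the DMSO arrays and 8478, 8357 and 8298 on the LK34 arrays (SE 0.07, adjusted p = 5.6e-05). *icl-1*, the glyoxylate cycle enzyme, was not called (log2 0.48, 95% interval 0.19 to 0.77). At an unadjusted limma p under 0.05, 15 genes of glycolysis and gluconeogenesis were higher and 2 lower. For the citric acid and glyoxylate cycles these were 11 and 1. Of 12 trehalose and glycogen genes, *tps-2*, a trehalose synthase gene, rose by 2.13 (adjusted p = 0.00016) and *pygl-1*, glycogen phosphorylase, by 1.49 (adjusted p = 0.0027). Of 7 genes of the pentose phosphate pathway, which supplies NADPH, limma passed 0, with 2 upward at an unadjusted p under 0.05. *hmit-1.1*, a myo-inositol transporter gene of the osmotic response, rose by 2.83 (adjusted p = 0.034), but the call ended without DMSO B (2.63), DMSO C (2.61), LK34 A (2.40) or LK34 B (2.65) and the value was 3.43 without LK34 C.

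Breakdown of amino acids and propionate rose along single routes. The canonical route that carries propionyl-CoA to succinyl-CoA was represented by *pccb-1* and *pcca-1*, the subunits of propionyl-CoA carboxylase, which rose by 1.55 and 1.48 (adjusted p = 0.00025 and 0.00096), and by *mce-1*, the methylmalonyl-CoA epimerase, which rose by 1.25 (adjusted p = 0.0041). *pcca-1* was 971, 713 and 1075 with DMSO and 2313, 2718 and 2574 with LK34, without overlap. The mutase that follows, *mmcm-1*, was not called (log2 0.26, 95% interval -0.25 to 0.77). *acdh-1*, of the alternative propionate shunt, rose by 1.01, a call that ended without DMSO B (0.93), DMSO C (0.79), LK34 A (1.05), LK34 B (1.07) or LK34 C (0.92), while *hach-1* of that shunt was 0.02 (-0.63 to 0.67) and *hphd-1* was 0.79 (adjusted p = 0.43). With *ech-6* (0.51) these were 5 of 16, and 3 passed without DMSO B, DMSO C, LK34 A or LK34 C, *ech-6* missing the adjusted p without DMSO B (0.46), DMSO C (0.52), LK34 A (0.50) or LK34 C (0.43). In tyrosine breakdown 3 enzymes rose, *hpd-1* (log2 1.06), *hgo-1* (1.89) and *fah-1* (0.91), and in tryptophan breakdown *kynu-1*, kynureninase, rose from 140.2, 135 and 143 to 556, 522 and 496 (log2 1.91, SE 0.21, adjusted p = 0.00022). These were 4 of 14, with a median of 0.62, and none fell. The *hpd-1* value was 0.95 without DMSO B, under 2-fold, and *fah-1* missed the adjusted p without DMSO B (0.80), LK34 A (0.84) or LK34 B (0.87). *tatn-1*, the tyrosine aminotransferase that opens the route, had a log2 value of -0.20 (95% interval -0.68 to 0.28). In the methionine cycle the direction was the opposite. *sams-2* and the probe set of *sams-2* and *sams-3*, which encode S-adenosylmethionine synthases, and *ahcy-1* fell by 0.82, 0.87 and 0.51, with every LK34 array below every DMSO array. The shared probe set missed the adjusted p without DMSO A (-0.83) or DMSO C (-0.82) or LK34 A (-0.73).

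**Figure D4:**
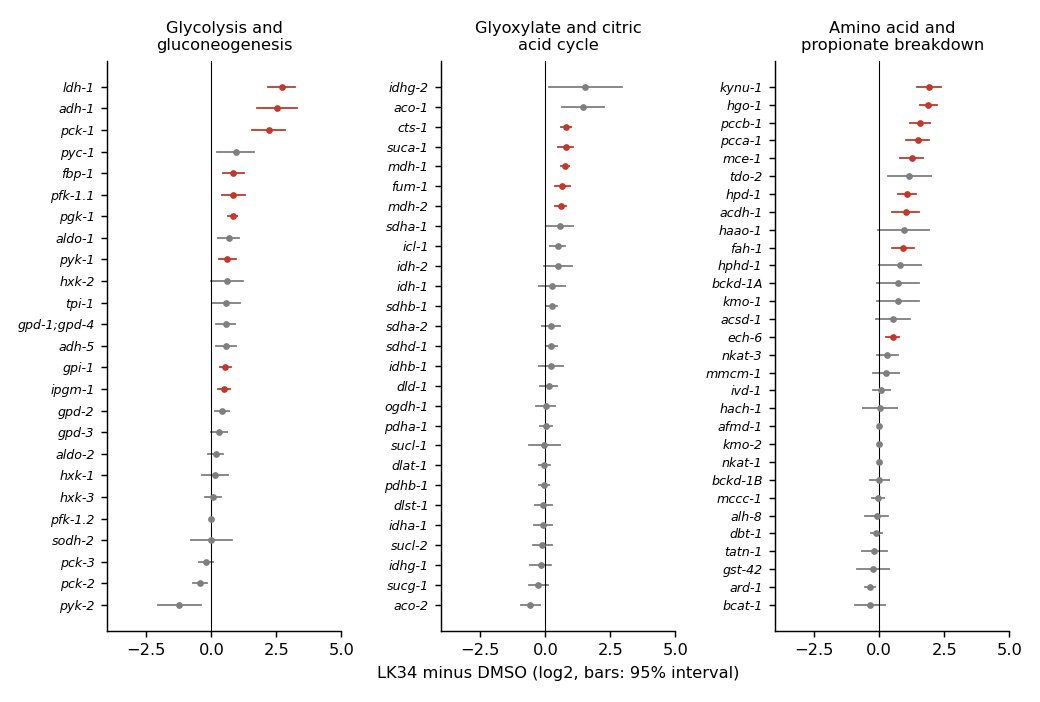
Log2 difference of LK34 minus DMSO with its 95% interval for the genes of glycolysis and gluconeogenesis, of the citric acid and glyoxylate cycles and of amino acid and propionate breakdown, each by its brightest probe set, in red where the adjusted p is under 0.05. The red points all lie to the right of 0 and lead with *ldh-1* at 2.71, *cts-1* at 0.79 and *kynu-1* at 1.91.

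Genes of lipid metabolism passed in both directions. Of 43 genes of fatty acid desaturation and synthesis, 5 rose and 1, the elongase gene *elo-2*, fell (log2 -1.41, adjusted p = 0.016), and the count that rose was 2 without DMSO C and 3 without any 1 of the other 5 arrays. The fall of *elo-2* missed the adjusted p when LK34 A, DMSO C or DMSO A was left out (log2 -1.16, -1.39 and -1.32). Of 39 genes of fatty acid oxidation 9 rose and none fell, and the count was 5 without DMSO C, LK34 A or LK34 B and 4 without DMSO B or LK34 C. They were led by the enoyl-CoA hydratase gene *ech-9* (log2 3.21, adjusted p = 0.0002) and the peroxisomal acyl-CoA oxidase gene *acox-1.6* (2.84, adjusted p = 0.022), which rose from 40.6, 51.9 and 42.2 to 170.2, 339.6 and 559 and whose call ended without DMSO A (2.77), DMSO B (2.94), DMSO C (2.80), LK34 B (2.79) or LK34 C (2.43). *lbp-3*, a secreted fatty acid binding protein, rose from 149, 154 and 162 to 704, 771 and 570.0 (log2 2.13, SE 0.26, adjusted p = 0.00043). *pcyt-1*, the rate-limiting enzyme of phosphatidylcholine synthesis from choline, rose by 2.07 (adjusted p = 0.02), a call that ended without DMSO B (1.86), DMSO C (2.12), LK34 A (1.99), LK34 B (2.11) or LK34 C (2.12), and the methyltransferases of the other route, *pmt-1* and *pmt-2*, were not called (log2 -0.22 and -0.24). Outside the lists, *acl-12*, an acyltransferase gene, rose by 2.19 (adjusted p = 1.4e-05) and *sptl-2*, serine palmitoyltransferase of sphingolipid synthesis, by 2.38 (adjusted p = 0.0058), both named after their values were seen. In the other direction, the fasting-induced lipase gene *fil-1* was 517, 383 and 416 with DMSO and 11.8, 11.8 and 5.17 with LK34 (log2 -5.60, SE 0.43, adjusted p = 1.1e-05), the largest fall of all. *lipl-3*, a lysosomal lipase gene, fell by 1.53 from dim values (adjusted p = 0.048), a call that ended without DMSO A (-1.13), DMSO C (-1.54), LK34 A (-1.62), LK34 B (-1.48) or LK34 C (-1.48).

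*pud-4* (186519_at), whose protein was first seen to accumulate in insulin receptor mutants, rose, with the 3 LK34 arrays close together, from 12.2, 8.61 and 11.9 to 3407, 3950 and 3646 (log2 8.41, SE 0.41, adjusted p = 1.2e-07). Of the other *pud* probe sets, *pud-3* was at 5.56 on LK34 A and 286 on LK34 C and was not called (log2 1.94, adjusted p = 1). *ins-7*, an insulin-like peptide gene of the intestine, was the 1 of 24 insulin genes that rose, from 21.3, 36.6 and 23.5 to 195, 186 and 106 (log2 2.57, adjusted p = 0.019), a call that ended without DMSO A (2.41), DMSO C (2.49), LK34 A (2.41) or LK34 B (2.44). The other genes among the 15 with the largest rises were *oac-14* (177903_s_at), an O-acyltransferase homolog, which rose from 6.39, 7.60 and 4.61 to 341, 337 and 192 (log2 5.53), *C35E7.5* (5.15) and *bigr-1* (at least 4.69).

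Genes of epithelial and cuticle structure rose and fell. Among genes outside the lists, the innexins *inx-3* and *inx-2*, which form gap junctions, rose from 78.2, 45.7 and 158 to 1021, 854 and 698 and from 189, 70.2 and 271 to 1507, 1419 and 1107 (log2 3.36 and 3.12, adjusted p = 0.0013 and 0.0059). *lon-1*, an epidermal regulator of body length, rose from 5.81, 4.92 and 4.72 to 128, 104.5 and 68.1 (log2 4.24, SE 0.51, adjusted p = 0.00036), and the chitinase gene *cht-1* from 133, 76.6 and 133 to 1591, 1415 and 1198 (log2 3.65, adjusted p = 0.002). These genes were named after their values were seen. All 4 stood well clear of DMSO on every array. Of 158 cuticle collagens, 6 rose and 7 fell, and the number that fell was 3 without DMSO A or DMSO B and 4 without LK34 B or LK34 C. The shares over all probe sets were 2.25% upward and 1.39% downward. *col-101* rose most, from 443, 482 and 312 to 2093, 2133 and 2579 (log2 2.48, SE 0.17, adjusted p = 4.1e-06), ahead of *col-143* (1.76), *col-95* (1.53) and *col-8* (1.21). *col-129* fell from 2066, 1980 and 1981 to 395, 301 and 264 (log2 -2.67, SE 0.15, adjusted p = 6.2e-07) and *col-81* from 958, 944 and 623 to 173, 103.7 and 110.2 (log2 -2.72, adjusted p = 8.8e-05), as did *col-139* (-1.58). *col-98* and *col-103* were lower as well (-1.59 and -1.30), but those calls ended without DMSO A (-1.42) or DMSO B (-1.42) for *col-98* and without DMSO A (-1.13), DMSO B (-1.14), LK34 B (-1.14) or LK34 C (-1.13) for *col-103*. Of 20 basement membrane genes limma passed 0, with 5 upward at an unadjusted p under 0.05.

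The transcripts that fell were led by those of sperm. All 28 major sperm protein genes measured, each by its brightest probe set, were called lower. They encode the chief structural proteins of nematode sperm, and the probe sets of these and the related *msd* genes alone make up 33 of the 183 that fell. *msp-63* was 534, 491 and 488 with DMSO and 103, 89.4 and 82.7 with LK34 (log2 -2.46, SE 0.25, adjusted p = 0.00011), and *msp-32*, with the smallest fall (log2 -1.36), was lost without DMSO A (-1.25), DMSO B (-1.45), DMSO C (-1.39), LK34 B (-1.30) or LK34 C (-1.16). The list median was -2.22, and the summed intensity of the list was 74301 to 87942 on the DMSO arrays and 14968 to 23236 on the LK34 arrays. These probe sets share most of their sequence, so they are not separate measurements. *msd-4* was 212, 227 and 159.8 and 29.4, 26.7 and 26.4 (log2 -2.85, SE 0.26, adjusted p = 4.3e-05), and *msd-2* fell likewise (-2.52). Of 69 other sperm genes 4 fell, *nspd-2* and 3 probe sets shared by related genes, and 34 lay at the floor on the 6 arrays. The number was 1 without DMSO A, DMSO C, LK34 B or LK34 C, and *nspd-2* (-1.50) ended without any 1 of the 6 arrays (-1.61 to -1.30). In whole worms, fewer cells of a type and less RNA in each cell cannot be told apart. Oocyte genes did not fall with the sperm genes, since 4 of 33 rose and none fell, with a median of 0.37. These were *cav-1*, caveolin (log2 2.74), *puf-5* (0.86), *rme-2*, the yolk receptor (0.67), and *puf-3* (0.59). The last 3 were under 2-fold, and the adjusted p was missed by *puf-5* without any 1 of the 6 arrays (0.71 to 0.98), by *rme-2* without any 1 of the 6 arrays (0.60 to 0.73) and by *puf-3* without DMSO A (0.52), DMSO B (0.60), DMSO C (0.64), LK34 B (0.55) or LK34 C (0.53). Of 34 germ granule and meiosis genes, *glh-1* rose (0.65), and it missed the adjusted p without any 1 of the 6 arrays (0.58 to 0.72). Of 54 histone genes 13 fell and 1 rose, *his-72* of the replication-independent histone H3.3 (log2 0.40, adjusted p = 0.027), which missed the adjusted p without any 1 of the 6 arrays (0.37 to 0.43). The number that fell was 8 without DMSO C, LK34 B or LK34 C. Several of the histone members are probe sets shared by several histone genes, so they are not all separate genes or separate measurements.

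*cpr-2* (189469_at), a cathepsin B-like protease gene, was 177, 183 and 137 with DMSO and 4.84, 4.82 and 4.69 with LK34, so that the LK34 arrays lay next to the floor (log2 -5.10, SE 0.23, adjusted p = 7.1e-08). *cpr-5*, of the same family, fell by 1.70 (adjusted p = 8.9e-05), while *cpr-6* rose by 0.42 and the aspartyl protease gene *asp-4* by 0.99, the last 2 being the members of 53 autophagy and lysosome genes that rose. *cpr-6* missed the adjusted p without DMSO A (0.38), DMSO C (0.41), LK34 A (0.41) or LK34 C (0.41). Of the 53 genes 2 rose and 2 fell, beside 2.25% upward and 1.39% downward over all probe sets. *sdz-24* (180256_at) was 1527, 2210 and 1638 and 134, 107 and 33.2 (log2 -4.50, SE 0.62, adjusted p = 0.0011, and -3.88 without LK34 C). *clec-61* (194066_s_at), a C-type lectin gene, was 376, 301 and 315 and 8.46, 9.90 and 8.46 (log2 -5.21, SE 0.65, adjusted p = 0.00048). *dlhd-1* was 209, 118.5 and 141 and 7.86, 7.86 and 7.86 (log2 -4.27, SE 0.69, adjusted p = 0.0034). In *cpr-2*, *sdz-24*, *clec-61* and *dlhd-1* the groups were far apart, and all LK34 arrays of *dlhd-1* held the same low value.

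Single neuropeptide genes were called, and they were not counted as a list. *nlp-10* (188068_at) was 84.9, 109.7 and 58.2 with DMSO and 6.07, 6.10 and 6.23 with LK34 (log2 -3.73, SE 0.23, adjusted p = 1.4e-06). *nlp-17* and *nlp-12*, the latter related to cholecystokinin, fell by 2.33 and 1.87 (adjusted p = 0.0011 and 0.0043). *flp-16* and *flp-15*, of the FMRFamide-like peptides, were lower by log2 values of -1.75 and -1.67, but the call ended for *flp-16* without DMSO A (-1.31), LK34 B (-1.76) or LK34 C (-1.60) and for *flp-15* without DMSO A (-1.57), DMSO C (-1.60), LK34 B (-1.56) or LK34 C (-1.52). *flp-6* moved the other way, from 61.7, 44.1 and 56.4 to 474, 473 and 302 (log2 2.93, adjusted p = 0.0012). Apart from *nlp-10*, these were named after their values were seen. *gplb-1*, which encodes a subunit of a glycoprotein hormone, was 145, 176 and 154 and 20.2, 20.2 and 17.5 (log2 -3.04, SE 0.24, adjusted p = 1.2e-05). The other genes among the 15 with the largest falls were *F49E12.10* (log2 -3.93), *T20D4.11* (-3.79), *T28A11.19* (at least 3.50 lower), *svct-1* (-3.44), *C50B6.7* (-3.43) and *F13B6.3* (-3.14).

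Defining genes of the main tissues gave few calls. Among 10 body wall muscle genes and 10 pharynx genes limma passed 0, with 1 muscle gene downward and 0 pharynx genes either way at an unadjusted p under 0.05, though 6 of the pharynx genes lay at the floor. The muscle myosin gene *unc-54* had a log2 value of -0.42 (95% interval -1.15 to 0.32). Of 11 neuronal genes, *snb-1* rose (0.44), and of 9 epidermal genes the adult collagen *col-19* fell (-0.40, and it missed the adjusted p without DMSO A (-0.38), DMSO B (-0.31), LK34 A (-0.44), LK34 B (-0.41) or LK34 C (-0.37)). Of 10 intestinal genes 1 rose and 2 fell, and their summed intensity was 42926 to 48516 with DMSO and 38860 to 45461 with LK34, which overlap. The intermediate filament gene *ifb-2* fell from 2636, 2383 and 2086 to 854, 706 and 549 (log2 -1.77, SE 0.22, adjusted p = 0.00047), *mtl-2* rose, and *pept-1*, the peptide transporter gene, was lower (-1.62), a call that ended without DMSO A (-1.24), DMSO C (-1.61), LK34 A (-1.76), LK34 B (-1.62) or LK34 C (-1.49). *elt-2*, the transcription factor that defines the intestine, was not called (-0.25, 95% interval -0.71 to 0.20), nor was *vha-6* (-0.50, -1.04 to 0.03). What part the sperm and intestinal markers have in the other changes was not tested.

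Few transcripts of stress and immune regulators passed. For *skn-1* the arrays held 306, 176 and 390.2 with DMSO and 252, 393 and 592 with LK34, which overlap (log2 0.49, 95% interval -1.26 to 2.24). *wdr-23*, whose protein marks SKN-1 for removal and whose gene is itself a SKN-1 target, rose from 754, 705 and 636 to 1014, 1001 and 1122 (log2 0.58, SE 0.13, adjusted p = 0.023), and it missed the adjusted p without DMSO B (0.59), DMSO C (0.52), LK34 A (0.61), LK34 B (0.61) or LK34 C (0.53). It was counted on the list of the p38 pathway and its regulators and was the 1 of those 15 genes that rose. As a regulator of SKN-1 it is no member of the p38 kinase cascade. The kinase genes *pmk-1* and *sek-1* had log2 values of 0.18 (95% interval -0.42 to 0.77) and -0.22 (-1.04 to 0.60), and the transcription factor gene *atf-7* of 0.41 (-0.04 to 0.86). Of 28 other regulators *xbp-1* rose and *pqm-1*, which acts opposite DAF-16, fell from 601, 521 and 509.7 to 354, 294 and 308 (log2 -0.77, adjusted p = 0.049), missing the adjusted p without any 1 of the 6 arrays (-0.85 to -0.70). The intervals of *daf-16* (-0.24 to 0.92), *hsf-1* (-0.34 to 1.07), *nhr-49* (-0.31 to 0.57), *mdt-15* (-1.23 to 0.44) and *sbp-1* (-0.24 to 0.47) all include 0. Nuclear hormone receptors, the largest family of worm transcription factors, gave 0 upward and 6 downward of 263 by limma, against 1 and 13 at an unadjusted p under 0.05. Of all probe sets, 2.25% passed the adjusted p upward and 1.39% downward. The 6 were *nhr-110* (-1.88), *nhr-133* (-1.68), *nhr-202* (-1.53), *nhr-35* (-1.101), *nhr-18* (-0.99) and *nhr-19* (-0.81). They were 2 without DMSO A or LK34 C, 3 without DMSO C or LK34 B and 1 without LK34 A, and the calls of *nhr-110*, *nhr-133* and *nhr-35* ended without any 1 of the 6 arrays, with log2 values of -2.11 to -1.68, -1.81 to -1.51 and -1.24 to -0.90. That of *nhr-202* ended without DMSO A (-1.32) or LK34 A (-1.39), and *nhr-18* missed the adjusted p without LK34 A (-0.93) or LK34 C (-0.94).

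LK34 was also set against LK35, LK38 and LK32, given at the same dose and time, which tests what sets its profile apart. These 3 comparisons use no DMSO array, but they share the LK34 arrays with each other and with the comparison against DMSO, and p values were adjusted over all probe sets within each. LK34 was higher than LK35 in 18 probe sets (0.0798%) and lower in 1 (0.00443%), the short-chain dehydrogenase gene *dhs-20* (log2 -1.12, adjusted p = 0.035). It was higher than LK38 in 19 (0.0843%) and lower in 33 (0.146%), and higher than LK32 in 257 (1.14%) and lower in 653 (2.9%). The 19 differences from LK35 were 12 without LK34 B and 11 without LK35 C, and the 52 from LK38 were 85 without LK38 C. Of the 336 probe sets that rose against DMSO, 17 were also above LK35, 18 above LK38 and 184 above LK32. Of the 183 that fell, 0 were below LK35, 1 below LK38 and 173 below LK32, by the same test. That the rest did not pass does not show that LK34, LK35 and LK38 acted alike on them. For *sysm-1*, for example, the difference from LK35 was -0.35 (95% interval -1.03 to 0.32) and from LK38 0.07 (-0.60 to 0.74), whereas from LK32 it was 7.03 (adjusted p = 9.1e-08).

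Probe sets above DMSO, LK35 and LK38 at once numbered 11, and 6 of them belong to the detoxification genes *fmo-2*, *gst-4*, *nit-1*, *gst-19*, *gst-24* and *gst-12*. The share of detoxification genes among all probe sets tested was not computed, so the 6 cannot be set against it. Of the 11, 8 were above LK32 too. *fmo-2* stood at 4356, 4433 and 2233 with LK34, at 4.61 to 4.66 with LK35, at 4.61 to 4.66 with LK38 and at 162 to 516 with LK32. The difference from LK32 was 3.67 on the log2 scale (SE 0.36, adjusted p = 5.6e-05). *gst-19* was 4.61 to 5.15 with LK35 and at the floor on all LK38 and LK32 arrays, against 170.1, 157 and 166 with LK34. *C15A11.4* (188969_at) was 73.8, 48.9 and 53.3 with LK34 and at or near the floor with DMSO, LK35, LK38 and LK32, the highest of those arrays being 4.76. Both transcripts were thus well above the floor with LK34 alone of these 5 groups. *gst-24* was 16.53 to 18.5 with LK35, 17.6 to 20.6 with LK38 and 16.04 to 18.4 with LK32, all far below the lowest LK34 array of 103.9. *nit-1* was 39.2 to 117 with LK32, between the values with DMSO and with LK34 (log2 difference from LK32 2.78, adjusted p = 0.0014). *C32H11.4* was 54.6 to 113 with LK35, 119.1 to 129.6 with LK38 and 121 to 273 with LK32, all above its DMSO values of 10.3, 10.7 and 18.1, and LK34 exceeded LK35, LK38 and LK32 by 3.11, 2.48 and 1.87 on the log2 scale. *mpst-3* and *R08F11.4* (186072_s_at) exceeded them by 1.17, 1.34 and 1.59 and by 1.17, 1.20 and 1.23.

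The remaining 3 of the 11 were not called against LK32. *gst-4* was 340.4 to 508 with LK32, and LK34 exceeded it by 1.24 (95% interval 0.29 to 2.18, adjusted p = 0.13), which was not called. *gst-12* was 18.4 to 78.2 with LK32 (log2 difference -0.55, -1.49 to 0.39). A probe set of *nspa* genes, a family of nematode-specific peptides, was 70.2 to 178 with LK35 and 149 to 212 with LK38, below the DMSO values of 851, 693 and 592, and 2700, 1668 and 1524 with LK34, so that its difference from LK35 (4.03) was larger than that from DMSO (1.43, a call that ended without DMSO B (1.42), DMSO C (1.31), LK34 A (1.18) or LK34 B (1.53)). *gst-5* divides the compounds in another way: LK34 exceeded LK35 by 4.02 (adjusted p = 0.00016) and differed from LK38 and LK32 by -0.65 and -0.23 (95% intervals -1.40 to 0.11 and -0.98 to 0.53). *cdr-4* and *oac-14* likewise exceeded LK35 (3.90 and 4.44), and *sqrd-1* and *cysl-2* exceeded LK38 (2.86 and 3.004). *adh-1* was above LK38 and LK32 (2.30 and 2.37) and 2.01 above LK35 (adjusted p = 0.086), which was not called.

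Where LK34 lay below LK38, cytochrome P450 genes led, with 14 of the 33 probe sets. *cyp-35B1* was 7.46, 9.87 and 7.46 with LK34 and 296 to 881 with LK38 (log2 -6.003, adjusted p = 5.9e-06), and *cyp-35C1* was 14.2, 32.7 and 98.5 and 1912 to 7977 (-6.56, adjusted p = 0.00022). *pgp-9*, a P-glycoprotein transporter gene, was 5.31, 5.31 and 10.9 and 103.7 to 128 (-4.08, adjusted p = 2.3e-06). Against DMSO these 3 genes were not called with LK34 (log2 0.69, 2.14 and 0.48, adjusted p = 0.58, 0.1 and 0.51). *far-3*, which encodes a fatty acid and retinol binding protein, rose with LK34 from 41.99, 43.3 and 27.9 to 694, 481 and 491 and was still lower than with LK38 (log2 -1.96, adjusted p = 0.011).

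**Figure D5:**
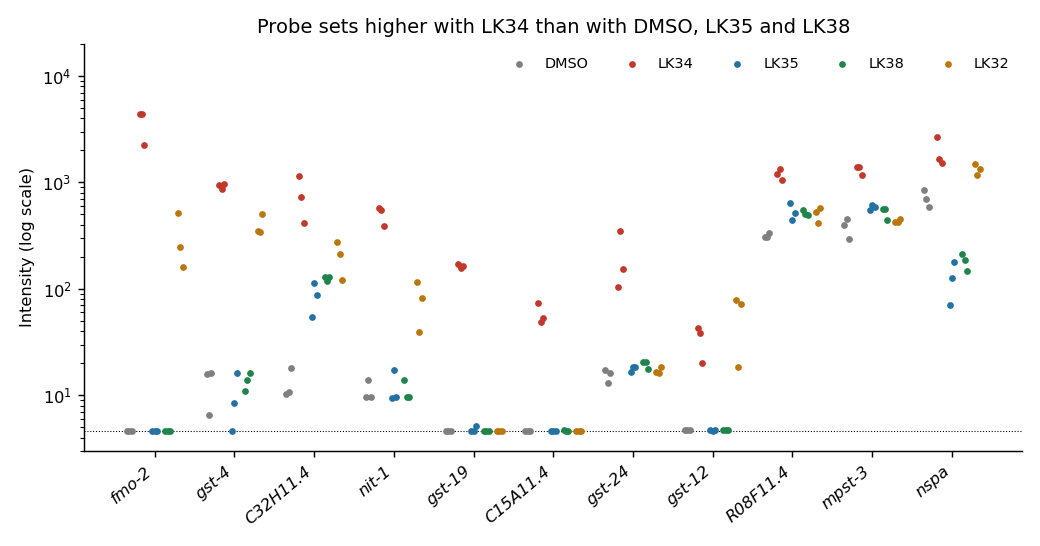
Intensity on a log scale of the 11 probe sets that were higher with LK34 than with DMSO, LK35 and LK38, with 1 point for each array, colored by group, and a dotted line at the floor of 4.61. *fmo-2*, *gst-4*, *nit-1*, *gst-12*, *C32H11.4*, *R08F11.4* and the *nspa* probe set also have every LK32 array above every DMSO array. *gst-19*, *C15A11.4* and *gst-24* stand out with LK34 alone among these groups, and the *nspa* probe set is below DMSO with LK35 and LK38.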

How the data were processed

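RNA of whole N2 young adults was measured on 18 Affymetrix *C. elegans* arrays, in 6 groups of 3 (DMSO, LK32, LK34, LK35, LK38 and LK56), of which LK34 and DMSO carry the main comparison. Each probe set has 1 intensity per array on a linear scale, which the authors made with GCRMA before the files were deposited. GCRMA estimates background from probe sequence, normalizes between arrays and summarizes probes, so dim values share 1 floor and their order is lost. Its version is not given in the sources used here. Scan dates and batches are likewise not given in those sources.

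The group of each array was taken from its treatment label. Of 22625 probe sets, 77 controls were left out. Platform annotation gave 1 gene to 20810 probe sets, several to 843 and none to 895, and 20701 of the first were matched to RefSeq names. Intensities were taken to log2 without an offset and fitted with limma 3.58.1 (lmFit and eBayes, two-sided) in R 4.3.3, with 1 mean per group over the 18 arrays. A probe set was called when its Benjamini-Hochberg p over 22548 probe sets was under 0.05 and its fold was 2 or more. Arrays give no counts, so the 3 arrays per group limit the precision, and limma estimated the spread from 12 residual degrees of freedom with little weight on the prior. The scripts were tested on simulated data.

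The members and the 61 gene lists were chosen with earlier results of these data known. Named genes were the 15 largest called changes in each direction among probe sets of 1 gene without overlap of the groups, up to 5 called members of each list in each direction, a fixed set of reporters and regulators, and the 5 largest changes called against DMSO, LK35, LK38 and LK32. Genes named outside this rule are marked as named after their values were seen. Alternatives were quantile normalization, median centring, an offset of 16, brighter probe sets alone, the 6 arrays alone, array weights, the letter as a block, other calling rules, probe sets of 1 transcript alone and leaving out each array. Leaving out LK32 C, LK35 A and LK38 C together was chosen after seeing the data.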

Additional observations from a re-analysis of the deposited data

How the results depend on the processing

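Of 207 named probe sets called against DMSO, each of those still tested kept its direction under every alternative run. Between 162 and 174 stayed called without any 1 of the 6 arrays, and 113 when the 6 arrays were fitted alone. Counts of probe sets called higher and lower, 336 and 183 as reported, were 161 and 96 with the 6 arrays alone, 631 and 317 with array weights, 148 and 50 without probe sets of several transcripts, 507 and 313 at the adjusted p alone and 737 and 335 at the 2-fold limit alone. Median centring gave 391 and 287 and quantile normalization 329 and 261. Leaving out each array in turn gave 228 to 287 higher and 124 to 157 lower. With LK38 C, LK35 A and LK32 C left out, an alternative chosen after seeing the data, 443 were higher and 224 lower. Without probe sets of several transcripts fewer probe sets were tested, and for the other settings the cause was not tested.

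The 19 probe sets that differed from LK35 were 30 among brighter probe sets alone and 11 to 19 without 1 array. The 52 that differed from LK38 were 82 after median centring, 100 with those 3 arrays left out, and 35 to 85 without 1 array, the last without LK38 C. Those that differed from LK32 ranged from 662 to 913 without 1 array.

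The letter as a replicate block gave 305 higher and 163 lower, of which 298 and 158 were also called without it, and 12 of the 207 named probe sets lost their call. Deviations of arrays with the same letter correlated at -0.007, -0.098 and 0.149 for A, B and C. LK34 C correlated best with the DMSO array of its own letter, and LK34 A and LK34 B did not. Each letter gives only a pair of arrays here, so these correlations cannot show whether arrays of the same letter were prepared together. Signals near the floor limit what can be seen of low transcripts, since 9729 probe sets lay there on all 6 arrays.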

Other observations

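Several genes outside the groups above changed strongly with LK34, and those of this paragraph were named after their values were seen. The astacin protease genes *nas-20* and *nas-11* rose from 43.6, 32.8 and 43.5 to 417, 517 and 496 and from 71.8, 67.8 and 59.7 to 949, 688 and 628 (log2 3.58 and 3.49, limma adjusted p = 0.00013 and 3.9e-05), with no overlap between the groups. *swt-6*, which encodes a sugar transporter of the SWEET family, rose from 394, 339 and 484 to 1252, 1572 and 1312 (log2 1.77, SE 0.16, adjusted p = 4.3e-05). *faah-1*, which encodes fatty acid amide hydrolase, an enzyme that breaks down N-acylethanolamines, was lower, at 716, 539 and 469 with DMSO and 105, 96.5 and 96.6 with LK34 (log2 -2.51, adjusted p = 0.034), but the call ended without any 1 of the 6 arrays (-2.65 to -2.34).

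Of 43 transthyretin-related genes, which encode small secreted proteins of nematodes, 5 rose and 1 fell, and 3 rose without DMSO C, LK34 A or LK34 B. *ttr-2* was 6030, 5496 and 6803 with DMSO and 18497, 14972 and 13658 with LK34 (log2 1.36, SE 0.23, adjusted p = 0.0051). *ttr-44* rose by 1.39 and *ttr-18* by 1.98. Of 77 cytosolic ribosomal proteins limma passed 0 upward and 3 downward, against 0 and 17 at an unadjusted p under 0.05, with a median of -0.08, and 0 passed without DMSO A, DMSO B, DMSO C or LK34 C, 1 without LK34 A and 2 without LK34 B.

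On the nuclear chromosomes, genes called higher made up from 0.918% of those measured on chromosome I to 2.47% on X, and genes called lower from 0.209% on I to 1.46% on IV, while none of 8 mitochondrial genes was called. Of 279 genes called higher with a place in the genome, 18 lay in 8 runs of direct neighbors, among them *skr-13*, *skr-9* and *skr-8*, *cnc-4* and *cnc-3*, and *lys-1* and *lys-2*. Of 133 called lower, 10 lay in 5 such runs, among them *msp-33* and *msp-32*, *msp-31* and *msp-152*, and *msp-63* and *msp-142*. The *msp* probe sets share most of their sequence, so these runs are not separate measurements. The probe sets of *skr-13*, *skr-9*, *skr-8* and *cnc-3* have names ending in _x_at and may bind transcripts of related genes. Their runs may thus not be separate measurements either. How many neighbors would be called without any clustering was not estimated, for the raised or the lowered genes.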
